A study of Mus musculus with 18 samples.

Results

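DNA replication and S phase genes, a set of 38 listed mouse genes, were followed across the 18 arrays of the series. They cover origin licensing and the replicative helicase, the polymerases, clamp and strand-processing enzymes, the supply of nucleotides, the control of S phase entry, and the packing of new DNA into chromatin. Each gene was read from 1 probe, the brightest of its probes on average over the 18 arrays, matched through the RefSeq accession of the probe. For 37 of the 38 a probe was found, and all 37 were well above background on all 18 arrays; Gins1, a subunit of the GINS helicase complex, was matched to no probe and is not analysed here. In all, 31623 genes and unnamed sequences were tested.

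The study sorted naive CD4+ T cells, with low CD44 on their surface, from mouse spleens, and labelled their RNA with Cy3 for 1-colour Agilent arrays, 1 mouse per array. LAT is the adaptor protein that carries the signal of the T cell receptor from its proximal kinases to downstream enzymes, and the series asks what the low-level, tonic signal through it does in resting cells. All 18 mice had a C57BL/6 background and all received tamoxifen, which switches on a Cre recombinase fused to an oestrogen receptor (ERCre), for 1 or 4 weeks; each of the 6 groups held 3 mice. The sample titles give the LAT WT mice (WT) as ERCre- with the alleles LAT f/-, the LAT KO mice as ERCre+ with LAT f/-, and the LAT Y136F mice (Y136F) as ERCre+ with LAT f/m, where the mutant allele lacks the tyrosine that binds phospholipase C-gamma 1. The series' design text instead describes WT mice as Cre-positive, so whether the controls carried the Cre is unsettled. Tamoxifen is shared by all groups. The age of the mice, and the cells in which the Cre acts, are not given in the sources used here. All Y136F mice were labelled female, all 4-week WT and LAT KO mice male, and the 1-week WT and LAT KO mice 2 female and 1 male. Y-linked genes went against the labelled sex in replicate 1 of the 1-week and replicate 2 of the 4-week LAT KO mice.

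Replication starts at origins that are licensed before S phase, when ORC, CDC6 and CDT1 load the ring-shaped MCM helicase onto DNA; CDC45 and GINS then join it and the polymerases follow. The genes for most of these proteins are switched on together at the end of G1. This is done mainly by E2F transcription factors, once the retinoblastoma protein has been inactivated. Naive T cells rest outside the cycle and hold little of this machinery until they are activated.

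The arrays were of similar brightness. The 75th percentile of the processed signal ranged from 1124 to 1896 intensity units, and 84.2% to 97.9% of the spots of an array were well above background. Levels below are log2 of the signal relative to that percentile of the same array, so 0 means a signal at the percentile and a difference of 1 is a doubling; levels of different probes are not comparable. Between 187 and 952 spots per array were marked as outliers and left out, and 7888 in LAT KO replicate 3 of 1 week, where Mcm3, Gins2, Chek1, Fen1 and Chaf1a therefore have no value. Lat itself stood at 2.71 ± 0.42 (SD, n = 3) in LAT KO, 3.59 ± 0.28 in WT and 4.07 ± 0.31 in Y136F cells at 4 weeks. At 1 week the 3 means were 2.75 ± 0.44, 3.19 ± 0.39 and 4.25 ± 0.072. The LAT KO and Y136F ranges of Lat did not overlap at 4 weeks (-1.37 ± 0.23, limma adjusted p = 0.00275), whereas neither mutant differed from WT past the threshold; the 1-week LAT KO mean includes 1 spot marked as an outlier. Differences are given as log2 ± SE from limma, with p-values adjusted by Benjamini-Hochberg over all features tested and a threshold of 0.05, and they measure only the spread between these mice.

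After 4 weeks of tamoxifen, replication genes were higher in Y136F cells than in WT cells. Of the 37 measured genes 21 were called higher, none lower, and 16 did not pass the threshold. Of 31552 features tested 781, 2.48%, were called higher. For this comparison, rose below means called higher than in WT cells of the same week and not a change with time. The difference was positive for 36 of the 37, with a median of 0.85 and a range from -0.20 (Chaf1b) to 2.50 (Rrm2), while the median over all features was -0.19. Over all features 32.3% of the differences were positive. Every Y136F array lay above every WT array for 31 of the 37, against 9.35% of the 30554 features with a value on all 6 arrays. By role, 7 of 11 licensing and helicase genes rose, 2 of 11 genes of polymerases, clamp and strand processing, 5 of 5 nucleotide supply genes, 4 of 6 genes of S phase entry and checkpoint, and 3 of 4 chromatin and histone supply genes. Since RNA was taken from whole sorted populations, a larger share of cells in cycle and more transcript in each cell cannot be told apart.

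Sex and genotype coincide in this comparison and cannot be told apart within it: the 4-week Y136F mice were labelled female and the 4-week WT mice male. With the labelled sex as a term, which the fit can estimate only from the 1-week WT and LAT KO mice, 0 of the 37 genes passed and their median difference was 0.72. The features called higher fell from 781 to 49 of 31552, 0.155%, with this term. When the LAT KO arrays that went against their labelled sex were also left out, 14 of the 37 passed. Then 373 features, 1.18%, were called higher. WT and LAT KO replicate 3 of 1 week were labelled male. Their levels of Xist, a transcript of the inactive X chromosome, were -3.98 and -3.74. In the 4-week WT mice, labelled male too, Xist stood at -7.03, -7.37 and -7.99. In WT replicates 1 and 2 of 1 week, labelled female, it stood at 0.50 and -0.19. LAT KO replicate 1 of 1 week, labelled female, had Xist at -9.30 and a mean Y-linked level of -0.71. LAT KO replicate 2 of 4 weeks, labelled male, had Xist at 0.21 and a mean Y-linked level of -7.68. The sex term took both by their labels. It rests on the 1-week WT and LAT KO arrays, and the cause of the Xist levels was not tested. On each of 3 slides lay 1 Y136F and 1 WT array of 4 weeks, and the medians of the 37 differences within these slides were 0.81, 0.89 and 0.93, with 36, 35 and 33 of the 37 positive. Over all features the medians within these slides were -0.035, -0.14 and -0.32.

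**Figure D1:**
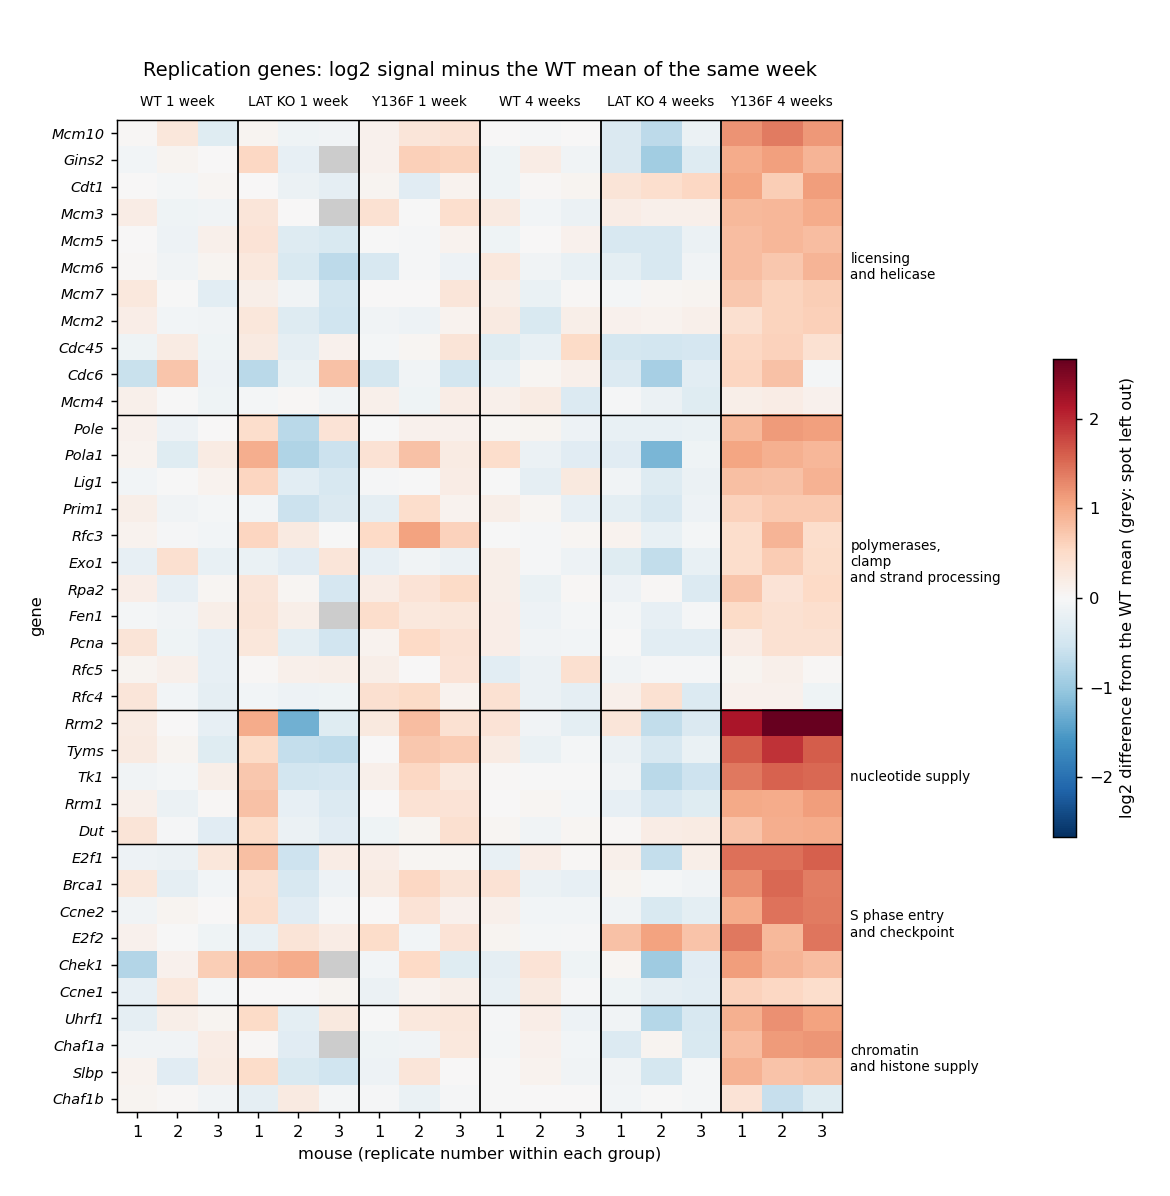
Level of each of the 37 replication genes (rows, grouped by role) in each of the 18 mice (columns), as the log2 difference from the mean of the 3 WT mice of the same week; red is higher, blue lower, and grey marks a spot left out as an outlier. The 3 Y136F mice of 4 weeks stand out in red for most genes, with Rrm2 the deepest, whereas Mcm4, Rfc4 and Rfc5 stay pale and Chaf1b is mixed.

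The helicase and licensing genes rose by 0.66 to 1.25 on the log2 scale where they passed. Mcm10, whose product helps to activate the loaded helicase, had levels of 0.053, 0.23 and 0.0074 in the 3 Y136F mice of 4 weeks, -1.14, -1.18 and -1.14 in the WT mice and -1.54, -1.85 and -1.31 in the LAT KO mice. In the 1-week mice the levels were -1.35, -1.08 and -1.70 in WT, -1.30, -1.48 and -1.46 in LAT KO and -1.27, -1.05 and -0.98 in Y136F cells. All Y136F mice of 4 weeks lay above the 15 other mice. The difference between Y136F and WT at 4 weeks was 1.25 ± 0.17, a 2.38-fold change, with the smallest p-value of the 37 genes (limma adjusted p = 0.000485). Cdt1, which loads the helicase together with Cdc6, stood at 1.34, 0.94 and 1.41 in Y136F, 0.18, 0.32 and 0.37 in WT and 0.63, 0.74 and 0.85 in LAT KO cells at 4 weeks. Levels at 1 week were 0.99, 0.92 and 1.03 in WT, 0.99, 0.84 and 0.75 in LAT KO and 1.05, 0.69 and 1.08 in Y136F cells. Here the 4-week WT mice were low and the Y136F mice of the 2 times overlapped. Cdt1 was 0.94 ± 0.14 higher in Y136F than in WT cells at 4 weeks (limma adjusted p = 0.00116). Mcm3, a subunit of the helicase ring, had levels of 1.85, 1.86 and 1.97 in Y136F, 1.20, 0.89 and 0.82 in WT and 1.17, 1.10 and 1.11 in LAT KO cells at 4 weeks. At 1 week it stood at 1.40, 1.08 and 1.10 in WT, 1.52 and 1.22 in LAT KO replicates 1 and 2, and 1.60, 1.19 and 1.64 in Y136F cells. Its Y136F mice of 4 weeks were again above all others, 0.92 ± 0.15 above WT (limma adjusted p = 0.00224).

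Of the other ring subunits, Mcm5 (0.85 ± 0.18), Mcm6 (0.82 ± 0.20) and Mcm7 (0.66 ± 0.17) rose, whereas Mcm2 (0.55 ± 0.19, limma adjusted p = 0.162) and Mcm4 (0.15 ± 0.15, 0.609) did not pass. The 6 subunits form 1 ring, yet their probes gave differences from 0.15 to 0.92. Gins2, which joins the ring to make the active helicase, rose by 1.00 ± 0.21; its partner Cdc45 differed by 0.52 ± 0.21 without passing. Cdc6, the loading factor, differed by 0.43 ± 0.38 on the probe used, and a second probe of the gene gave a difference of 1.99, so the 2 probes disagree. For the licensing genes with 1 probe no such comparison could be made.

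Promoter sequence of helicase and chromatin genes that rose is shown because these genes moved together and E2F sites are a known feature of such promoters. Windows from 250 bases before to 50 bases after each gene's start were taken from RefSeq (GRCm38.p6), which held at least 1 for 32 of the 38 genes, 38 windows in all. They were searched on both strands for the E2F words TTTCCCGC, TTTGGCGC, TTTCGCGC and TTTGCCGC, which share bases with each other where they overlap. A match before the start was found in 4 of the genes called higher, and 120 bases of each are printed in the direction of the gene with the matching letters in capitals, for Uhrf1 (chr17:56304108-56304227, plus strand), Mcm5 (chr8:75109336-75109455, plus strand), Mcm6 (chr1:128359706-128359825, minus strand) and Mcm7 (chr5:138171949-138172068, minus strand).
Uhrf1: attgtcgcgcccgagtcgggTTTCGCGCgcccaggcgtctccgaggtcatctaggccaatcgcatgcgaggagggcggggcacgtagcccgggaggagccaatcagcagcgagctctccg
Mcm5: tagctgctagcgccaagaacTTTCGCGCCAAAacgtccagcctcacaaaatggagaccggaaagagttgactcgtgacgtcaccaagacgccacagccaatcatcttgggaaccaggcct
Mcm6: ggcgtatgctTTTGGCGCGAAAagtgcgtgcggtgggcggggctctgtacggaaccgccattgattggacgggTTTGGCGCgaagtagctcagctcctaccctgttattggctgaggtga
Mcm7: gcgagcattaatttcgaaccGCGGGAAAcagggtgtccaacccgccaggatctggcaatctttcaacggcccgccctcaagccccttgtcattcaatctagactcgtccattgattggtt
Uhrf1 and Mcm7 have 1 match each in these stretches, Mcm5 has 2 that overlap, and Mcm6 has 3, of which 2 overlap. An E2F word was found in a window of 11 of the 32 genes, 34.4%, and of 704 of all 27025 genes with a window, 2.6%. Among the 18 genes called higher in Y136F cells with a window 8 held one (44.4%), and among the 14 not called 3 did (21.4%). Those 3, Cdc6, Pola1 and Rfc3, also had a match before the start, at -138, -138 and -10 bases. The called genes Cdt1, E2f2, Lig1 and Mcm3 had matches only after the start. Matches before the start were thus not particular to called genes. The CCAAT word of NF-Y was in a window of 59.4% of the 32 genes and 41.1% of all genes, and the CHR words TTTGAA and TTCGAA in 18.8% and 21.7%. These matches describe letters in a window and no binding was measured.

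The polymerase, clamp and strand-processing genes had the lowest median difference of the 5 roles, 0.54. Lig1, the ligase that joins Okazaki fragments, stood at 4.22, 4.21 and 4.35 in Y136F, 3.41, 3.18 and 3.68 in WT and 3.34, 3.09 and 3.26 in LAT KO cells at 4 weeks. Its 1-week levels were 3.07, 3.14 and 3.23 in WT, 3.71, 2.86 and 2.72 in LAT KO and 3.10, 3.13 and 3.33 in Y136F cells. The 3 Y136F mice of 4 weeks were the highest, followed by LAT KO replicate 1 of 1 week, and the difference from WT at 4 weeks was 0.84 ± 0.20 (limma adjusted p = 0.0249). Pole, the catalytic subunit of the leading-strand polymerase, stood at -2.83, -2.56 and -2.59 in Y136F, -3.63, -3.62 and -3.82 in WT and -3.89, -3.88 and -3.86 in LAT KO cells at 4 weeks. At 1 week its levels were -3.51, -3.76 and -3.62 in WT, -3.17, -4.36 and -3.26 in LAT KO and -3.64, -3.51 and -3.51 in Y136F cells. The 4-week Y136F mice were the highest while the 1-week LAT KO mice ranged widely, and the Y136F difference at 4 weeks was 1.03 ± 0.26 (limma adjusted p = 0.0355). Prim1, the catalytic subunit of primase, stood at -0.55, -0.46 and -0.47 in Y136F, -1.0, -1.11 and -1.39 in WT and -1.44, -1.60 and -1.31 in LAT KO cells at 4 weeks. At 1 week the levels were -1.04, -1.29 and -1.24 in WT, -1.27, -1.76 and -1.57 in LAT KO and -1.42, -0.71 and -1.10 in Y136F cells. Y136F and WT did not overlap at 4 weeks, but the difference of 0.67 ± 0.18 did not pass (limma adjusted p = 0.0522).

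Pcna, the sliding clamp that holds the polymerases on DNA, is often used as a marker of S phase, and its difference was 0.34 ± 0.20 (limma adjusted p = 0.404). Its levels at 4 weeks were 3.47, 3.68 and 3.67 in Y136F, 3.45, 3.17 and 3.19 in WT and 3.25, 2.99 and 2.99 in LAT KO cells. The clamp loader subunits Rfc4 (0.042 ± 0.21) and Rfc5 (0.079 ± 0.16) had differences near 0, and Rfc3 (0.62 ± 0.18) did not pass. The Rfc4 difference turned to -0.0019 with normexp background correction. The single-strand binding subunit Rpa2 (0.54 ± 0.18), the flap nuclease Fen1 (0.46 ± 0.14), the exonuclease Exo1 (0.54 ± 0.21) and the primase-associated polymerase Pola1 (0.97 ± 0.38) had positive differences with limma adjusted p from 0.112 to 0.21.

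Nucleotide supply genes all rose, with the highest median difference of the 5 roles, 1.50. Rrm2, the small subunit of ribonucleotide reductase that limits the making of deoxynucleotides, stood at -0.35, 0.14 and 0.12 in Y136F, -2.16, -2.62 and -2.79 in WT and -2.20, -3.19 and -2.92 in LAT KO cells at 4 weeks. Its 1-week levels were -2.47, -2.68 and -2.91 in WT, -1.70, -3.98 and -3.00 in LAT KO and -2.42, -1.86 and -2.27 in Y136F cells. The Y136F mice of 4 weeks lay above all 15 others, while the 1-week LAT KO mice ranged widely. Rrm2 was 2.50 ± 0.40 higher in Y136F than in WT cells at 4 weeks, 5.64-fold (limma adjusted p = 0.00169). Tyms, thymidylate synthase, stood at 1.10, 1.41 and 1.09 in Y136F, -0.30, -0.70 and -0.57 in WT and -0.68, -0.94 and -0.69 in LAT KO cells at 4 weeks. In the 1-week mice the levels were -0.35, -0.53 and -0.91 in WT, -0.089, -1.23 and -1.27 in LAT KO and -0.59, 0.11 and 0.071 in Y136F cells. Again no other mouse reached the 4-week Y136F mice, and the difference from WT was 1.72 ± 0.27, 3.3-fold (limma adjusted p = 0.0012); a second Tyms probe gave 1.77. Tk1, the thymidine kinase of the salvage pathway, stood at 0.48, 0.64 and 0.59 in Y136F, -0.90, -0.95 and -0.94 in WT and -1.02, -1.65 and -1.49 in LAT KO cells at 4 weeks. Levels at 1 week were -1.41, -1.37 and -1.15 in WT, -0.59, -1.80 and -1.76 in LAT KO and -1.18, -0.75 and -1.03 in Y136F cells. The 4-week Y136F mice were the only ones above 0, 1.50 ± 0.25 above WT (limma adjusted p = 0.00211). Rrm1, the large reductase subunit, rose by 1.04 ± 0.22 and Dut, which keeps uracil out of DNA, by 0.90 ± 0.20.

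**Figure D2:**
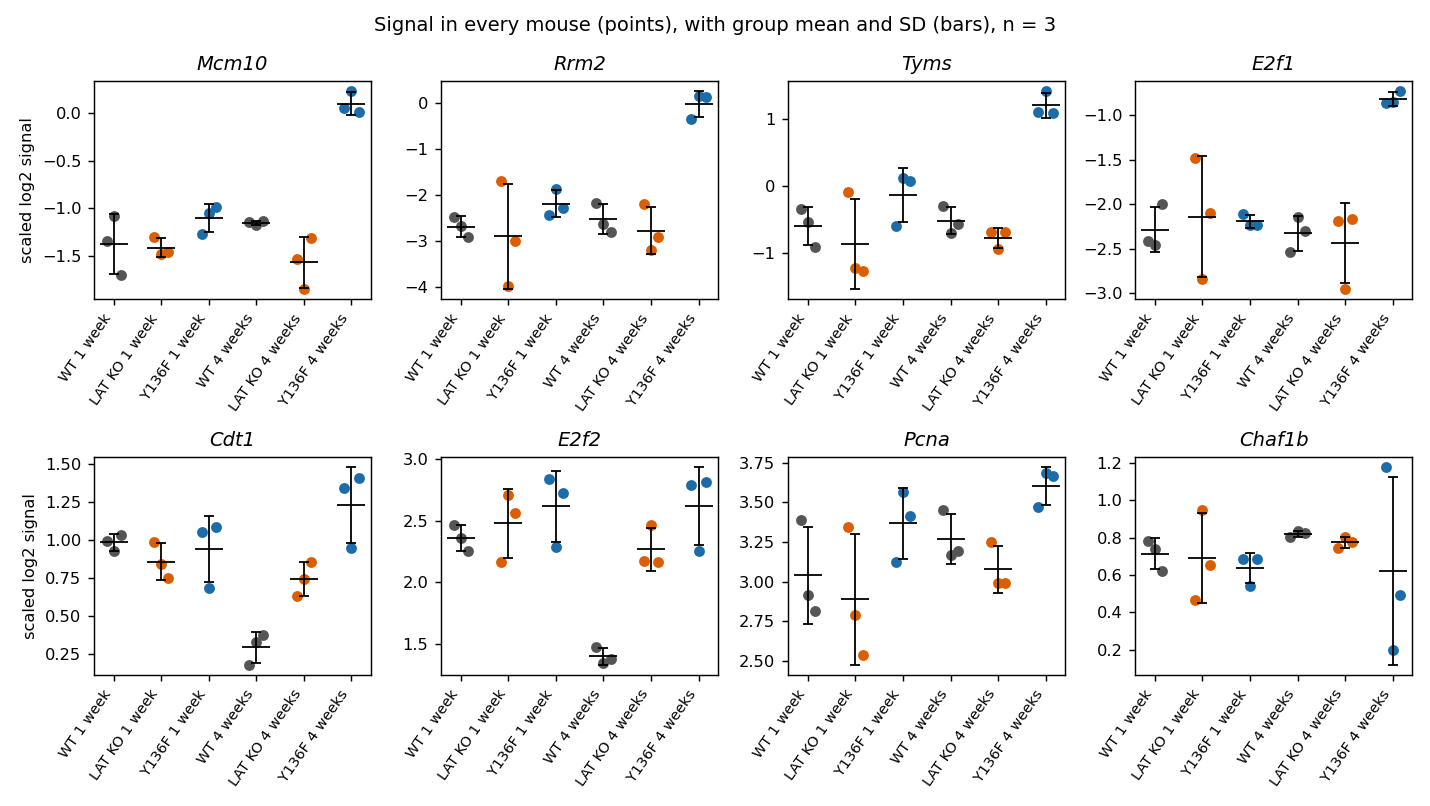
Level (log2 of the signal relative to the 75th percentile of the array) of 8 genes in each mouse (points) by group, with the group mean and SD (bars, n = 3). In Mcm10, Rrm2, Tyms and E2f1 the 4-week Y136F mice stand above all others, in Cdt1 and E2f2 the 4-week WT mice stand below the others, Pcna shifts little, and the Y136F mice of Chaf1b scatter.

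Among the genes that control S phase entry, Ccne2, one of the 2 cyclin E genes, stood at 0.12, 0.59 and 0.53 in Y136F, -0.72, -0.93 and -0.93 in WT and -0.95, -1.27 and -1.11 in LAT KO cells at 4 weeks. At 1 week the levels were -1.01, -0.84 and -0.90 in WT, -0.44, -1.23 and -0.95 in LAT KO and -0.90, -0.55 and -0.80 in Y136F cells. The 4-week Y136F mice lay above all others, 1.27 ± 0.19 above WT (limma adjusted p = 0.000838). E2f2, an activating E2F factor, stood at 2.79, 2.26 and 2.82 in Y136F, 1.48, 1.34 and 1.37 in WT and 2.17, 2.47 and 2.16 in LAT KO cells at 4 weeks. At 1 week its levels were 2.47, 2.36 and 2.26 in WT, 2.17, 2.71 and 2.56 in LAT KO and 2.84, 2.29 and 2.72 in Y136F cells. The 4-week WT mice were the only group apart, below all 15 other mice. Y136F exceeded WT by 1.23 ± 0.18 at 4 weeks (limma adjusted p = 0.000864), yet E2f2 differed by 0.005 ± 0.18 between the times in Y136F cells (adjusted p = 0.988). In WT cells it was -0.96 ± 0.18 from 1 to 4 weeks, which did not pass (limma adjusted p = 0.0875). Brca1, which protects and repairs stalled forks, stood at -1.35, -1.06 and -1.22 in Y136F, -2.21, -2.75 and -2.80 in WT and -2.51, -2.64 and -2.69 in LAT KO cells at 4 weeks. In the 1-week mice the levels were -2.39, -2.92 and -2.76 in WT, -2.26, -3.12 and -2.82 in LAT KO and -2.47, -2.13 and -2.34 in Y136F cells. Its 4-week Y136F mice were above every other mouse, 1.38 ± 0.23 above WT (limma adjusted p = 0.00207), and a second probe gave 1.46.

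E2f1, the other activating E2F on the list, rose by 1.51 ± 0.28 (limma adjusted p = 0.00414) on the probe used, whereas a second probe gave 0.38. Ccne1 differed by 0.54 ± 0.15 without passing, and its second probe gave -0.17. The checkpoint kinase gene Chek1 differed by 0.94 ± 0.36, with a limma adjusted p of 0.202. Its 4-week levels were -2.83, -3.04 and -3.12 in Y136F, -4.19, -3.58 and -4.05 in WT and -3.88, -4.88 and -4.24 in LAT KO cells; Y136F and WT did not overlap.

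The chromatin and histone supply genes rose with 1 exception. Chaf1a, the large subunit of the histone chaperone CAF-1 that works behind the fork, stood at -1.10, -0.79 and -0.75 in Y136F, -1.99, -1.81 and -2.01 in WT and -2.31, -1.85 and -2.33 in LAT KO cells at 4 weeks. Levels at 1 week were -1.96, -1.97 and -1.68 in WT, -1.84 and -2.17 in LAT KO replicates 1 and 2, and -1.98, -1.96 and -1.60 in Y136F cells. No other mouse reached the 4-week Y136F mice, which were 1.05 ± 0.19 above WT (limma adjusted p = 0.00369). Uhrf1, which guides maintenance DNA methylation, stood at 0.90, 1.18 and 1.03 in Y136F, -0.08, 0.14 and -0.18 in WT and -0.14, -0.80 and -0.46 in LAT KO cells at 4 weeks. At 1 week the levels were -0.89, -0.48 and -0.56 in WT, -0.13, -0.89 and -0.39 in LAT KO and -0.64, -0.37 and -0.33 in Y136F cells. The difference at 4 weeks was 1.08 ± 0.20 (limma adjusted p = 0.00443) and 1.88 on a second probe, with the Y136F mice of 4 weeks again the highest. Slbp, the histone mRNA binding protein, stood at 2.29, 2.14 and 2.17 in Y136F, 1.37, 1.48 and 1.27 in WT and 1.28, 0.90 and 1.32 in LAT KO cells at 4 weeks. At 1 week its levels were 1.36, 0.98 and 1.48 in WT, 1.76, 0.87 and 0.74 in LAT KO and 1.14, 1.60 and 1.28 in Y136F cells. It was 0.83 ± 0.22 higher, close to the threshold (limma adjusted p = 0.0435). Chaf1b, the middle subunit of CAF-1, was the only gene with a negative difference. Its levels were 1.18, 0.20 and 0.49 in Y136F, 0.80, 0.83 and 0.83 in WT and 0.74, 0.80 and 0.78 in LAT KO cells at 4 weeks, and 0.78, 0.74 and 0.62 in WT, 0.47, 0.95 and 0.66 in LAT KO and 0.68, 0.54 and 0.69 in Y136F cells at 1 week. The Y136F mice lay on both sides of WT, with a difference of -0.20 ± 0.19 (limma adjusted p = 0.592) that turned to 0.015 without Y136F replicate 2 of 4 weeks. The 2 CAF-1 subunits, which work in 1 complex, thus had differences of 1.05 and -0.20; the difference between them was not tested.

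After 1 week, none of the 37 genes was called between Y136F and WT cells with limma, where 5 of 31566 features, 0.0158%, were called in either direction. At an unadjusted p under 0.05 there were 3 genes, Rfc3, Fen1 and Gins2, where 6.04% of all features had one. The median difference was 0.13 and 31 of the 37 were positive, with medians of 0.047, 0.11 and 0.19 within the 3 slides that held both groups. Over all features the median was -0.12 and 33.2% were positive, with medians of -0.14, -0.25 and 0.025 within these slides. Every Y136F array lay above every WT array for 5 genes, against 4.46% of all features with a value on these arrays. Rfc3 had the smallest p-value (0.74 ± 0.18, limma adjusted p = 0.212), with levels of -0.51, 0.018 and -0.44 in Y136F and -0.95, -1.08 and -1.13 in WT cells. It is a clamp loader subunit and did not overlap between these groups.

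Within the Y136F genotype, 20 of the 37 genes were called higher after 4 weeks than after 1 week, where 4.21% of features were called higher, and none was called lower. The median difference was 0.89, against 0.13 over all features. This comparison shares its 4-week Y136F arrays with the one against WT at 4 weeks. The nucleotide genes Rrm2 (2.16 ± 0.40, limma adjusted p = 0.00284) and Tk1 (1.56 ± 0.25, 0.00092), the chromatin gene Uhrf1 (1.48 ± 0.20, 0.000256) and the checkpoint kinase gene Chek1 (1.68 ± 0.36, 0.00871) rose, as did Cdc45 (0.83 ± 0.21) and Exo1 (0.94 ± 0.21). Cdt1 (0.29 ± 0.14, 0.224) and Mcm3 (0.42 ± 0.15, 0.106) did not pass. Rfc4 had the lowest difference, -0.66 ± 0.21 (limma adjusted p = 0.0632). With slide as a fixed term the count was 9 of 37.

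The change of the Y136F difference from WT between 1 and 4 weeks was tested directly. Only Cdt1 passed, with a change of 0.99 ± 0.20 (limma adjusted p = 0.0362), where 0.393% of features were called higher. At an unadjusted p under 0.05 there were 24 of the 37, where 8.71% of all features had one. The median change of the 37 was 0.78, and the next smallest p-values were those of Ccne2 (1.11 ± 0.26, limma adjusted p = 0.076) and Mcm10 (0.98 ± 0.24, 0.0875). The count ranged from 0 to 16 over the alternatives, and it was 0 without any one of 11 of the 12 arrays of these 4 groups, Y136F replicate 2 of 4 weeks being the exception. For most of the 37 genes, therefore, the Y136F difference at 4 weeks is not shown to exceed that at 1 week. The Cdt1 change includes the low 4-week WT mice, whose mean was -0.69 ± 0.14 from that at 1 week (limma adjusted p = 0.11).

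**Figure D3:**
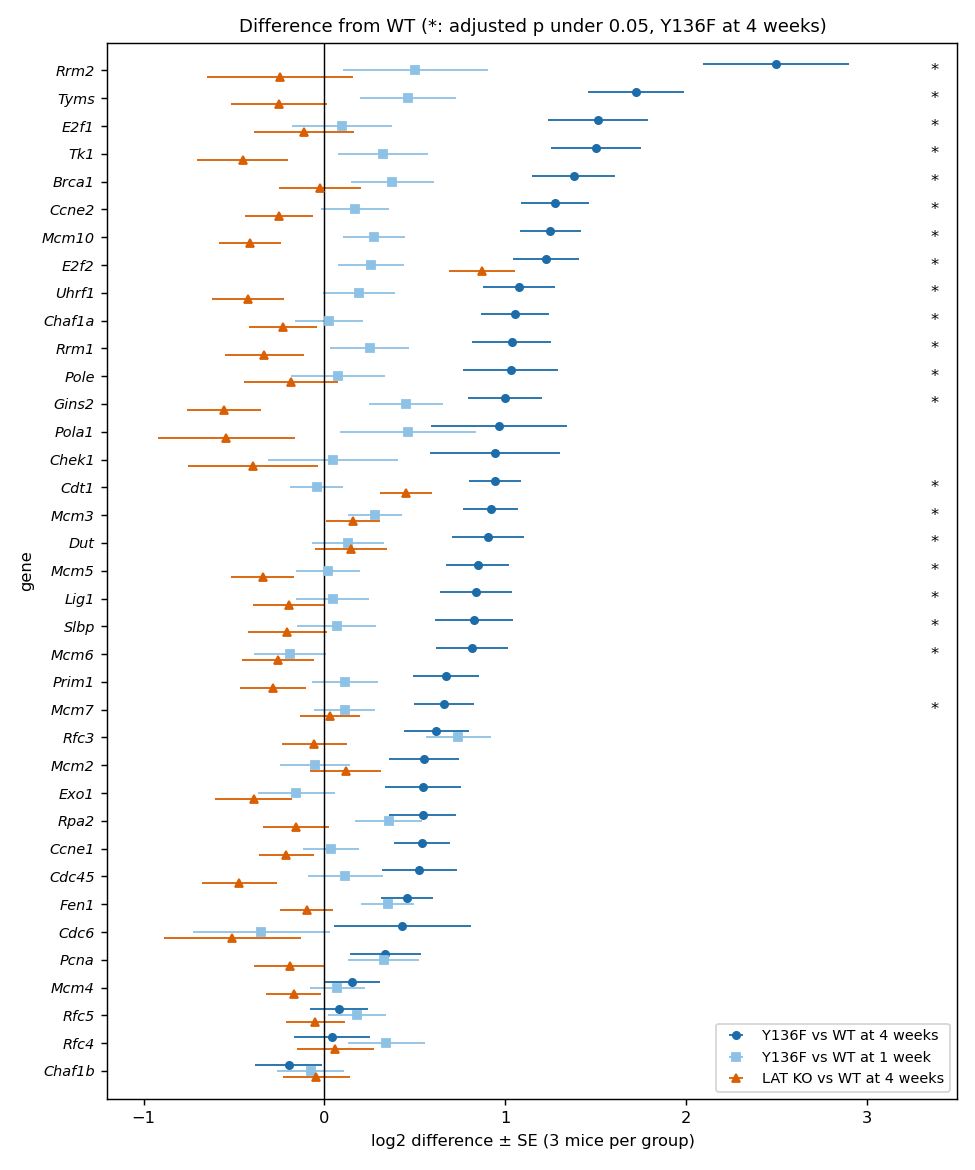
Difference from WT of each of the 37 genes (log2 ± SE, 3 mice per group), for Y136F at 4 weeks (dark blue circles), Y136F at 1 week (light blue squares) and LAT KO at 4 weeks (orange triangles); an asterisk marks a limma adjusted p under 0.05 for Y136F at 4 weeks. The dark circles run from -0.20 for Chaf1b to 2.50 for Rrm2, whereas the orange triangles lie below 0 except for 7 genes, with E2f2 the highest at 0.87.

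No such rise was measured in LAT KO cells. Between LAT KO and WT cells at 4 weeks, 0 of the 37 genes were called by limma, where 31 of 31573 features, 0.0982%, were called in either direction, and 6 of the 37 had an unadjusted p under 0.05, where 11% of all features had one. The median difference was -0.20, close to -0.17 over all features, and 30 of the 37 were negative. Of the differences over all features 34.7% were positive. On the 2 slides that held both groups the medians were -0.18 and -0.11, against -0.059 and -0.12 over all features. E2f2 had the smallest p-value (0.87 ± 0.18, limma adjusted p = 0.0811) and Cdt1 the next (0.45 ± 0.14, 0.319); both differences were positive and both genes have low 4-week WT mice, which this comparison shares with that of Y136F. Gins2 (-0.55 ± 0.21), Pola1 (-0.54 ± 0.38) and Cdc6 (-0.51 ± 0.38) had the lowest differences. At 1 week 0 of the 37 were called by limma between LAT KO and WT cells, where 0.019% of features were, and only Chek1 had an unadjusted p under 0.05, against 2.87% of all features. The median was -0.038, against -0.046 over all features.

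Set against each other at 4 weeks, LAT KO cells had lower levels than Y136F cells of 27 of the 37 genes, where 2.32% of features were called lower, and the median difference was -0.995. On the 2 slides that held both groups the medians were -0.94 and -0.85. The comparison shares its Y136F arrays with the one against WT. Mcm10 (-1.66 ± 0.17, limma adjusted p = 4.13e-05), Ccne2 (-1.53 ± 0.19, 0.000189) and Tk1 (-1.95 ± 0.25, 0.000238) had the smallest p-values, and Rrm2 the largest difference (-2.74 ± 0.40). Prim1 (-0.95 ± 0.18), Cdc45 (-0.995 ± 0.21), Ccne1 (-0.75 ± 0.15), Exo1 (-0.94 ± 0.21), Pola1 (-1.51 ± 0.38), Rpa2 (-0.70 ± 0.18), Fen1 (-0.55 ± 0.14) and Rfc3 (-0.67 ± 0.18) passed here. E2f2 (-0.35 ± 0.18, 0.473) and Cdt1 (-0.49 ± 0.14, 0.0813) did not. The LAT KO and Y136F mice of 4 weeks also differ in labelled sex: the count was 5 with sex as a term, 13 when the LAT KO arrays against their labelled sex were left out as well, and 16 without LAT KO replicate 2 of 4 weeks.

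Several comparisons gave no call among the 37 genes or among all features, so that their background share was 0% with limma: LAT KO against Y136F at 1 week, LAT KO at 4 against 1 week, WT at 4 against 1 week, and the change of the LAT KO difference between the times. Their counts at an unadjusted p under 0.05 were 6, 0, 6 and 5 of the 37, where 5.71%, 0.586%, 19.4% and 5.12% of all features had one. In WT cells the lowest changes with time were those of E2f2 and Cdt1 given above, and the highest were those of Chek1 (0.79 ± 0.36), Uhrf1 (0.60 ± 0.20) and Pola1 (0.59 ± 0.38).

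Across the 6 groups, the highest mean was that of Y136F at 4 weeks for 35 of the 37 genes. The exceptions were Rfc4, highest in Y136F cells of 1 week, and Chaf1b, highest in WT cells of 4 weeks. The mice of the 4-week Y136F group were alike: their medians over the 37 genes, as differences from the WT mean, ran from 0.83 to 0.89. The LAT KO mice of 4 weeks ran from -0.34 to -0.087 and the Y136F mice of 1 week from 0.011 to 0.27. The LAT KO mice of 1 week ran from -0.23 to 0.33, and replicate 1 was the highest of the 3 mice for 25 of the 32 genes measured in all of them. The Y-linked genes of that mouse went against its labelled sex. Its lists of activated or memory (0.80), B cell (0.78) and plasma cell (0.78) markers were also above the WT mean. B cell markers were above it in other 1-week mice too, by 0.86 in Y136F replicate 2 and 0.40 in LAT KO replicate 3. The replication medians of those mice were 0.12 and -0.18, and their activated or memory medians 0.10 and -0.19. The part of these markers in the replication levels was not tested.

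A separate list held other replication genes. Of 68 further tested genes of replication, fork protection and E2F control, 12 were higher in Y136F than in WT cells at 4 weeks. Over all features 2.48% were called higher. None of the 68 was lower, and the median difference was 0.28 against -0.19 over all features. In Y136F cells at 4 against 1 week 12 of the 68 were higher, where 4.21% of features were. Lower were 4 of the 68, where 1087 of 31551 features were called lower. The median was 0.14 against 0.13 over all features. Against WT at 4 weeks, E2f3 and Asf1b had the smallest p-values. E2f3, an activating E2F, differed by 1.27 ± 0.19 (limma adjusted p = 0.000824). Asf1b, a histone chaperone, differed by 1.54 ± 0.23 (limma adjusted p = 0.000838). In WT cells at 4 against 1 week E2f3 had the smallest p-value of the 68, though no feature was called there. The change of the Y136F difference between the times was called for 2 of the 68, where 0.393% of features were called higher. E2f3 and Asf1b had the smallest p-values in that test. Between Y136F and WT cells at 1 week 0 of the 68 were called by limma, where 0.0158% of features were. At an unadjusted p under 0.05 there were 11, where 6.04% of all features had one. Between LAT KO and WT cells at 4 weeks 0 of the 68 were called by limma, where 0.0982% of features were. There 8 had an unadjusted p under 0.05, where 11% of all features did. Mitotic genes were read as another sign of cycling. Of 22 of them, 14 were higher in Y136F than in WT cells at 4 weeks, where 2.48% of features were. None was lower, and the median difference was 1.33 against -0.19 over all features. Cenpa, the centromeric histone (1.54 ± 0.19, 0.000253), Mki67, the Ki-67 gene (2.37 ± 0.30, 0.000253), and Stmn1, a microtubule regulator (1.41 ± 0.18, 0.000262), had the smallest p-values. For 4 of the 22 the change of the Y136F difference between the times was called higher, where 0.393% of features were. Between LAT KO and WT cells at 4 weeks 0 of the 22 passed with limma, and 3 had an unadjusted p under 0.05. The shares over all features were 0.0982% and 11%. All 22 differences were negative, with a median of -0.28 against -0.17 over all features. Of the differences of all features 34.7% were positive.

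**Figure D4:**
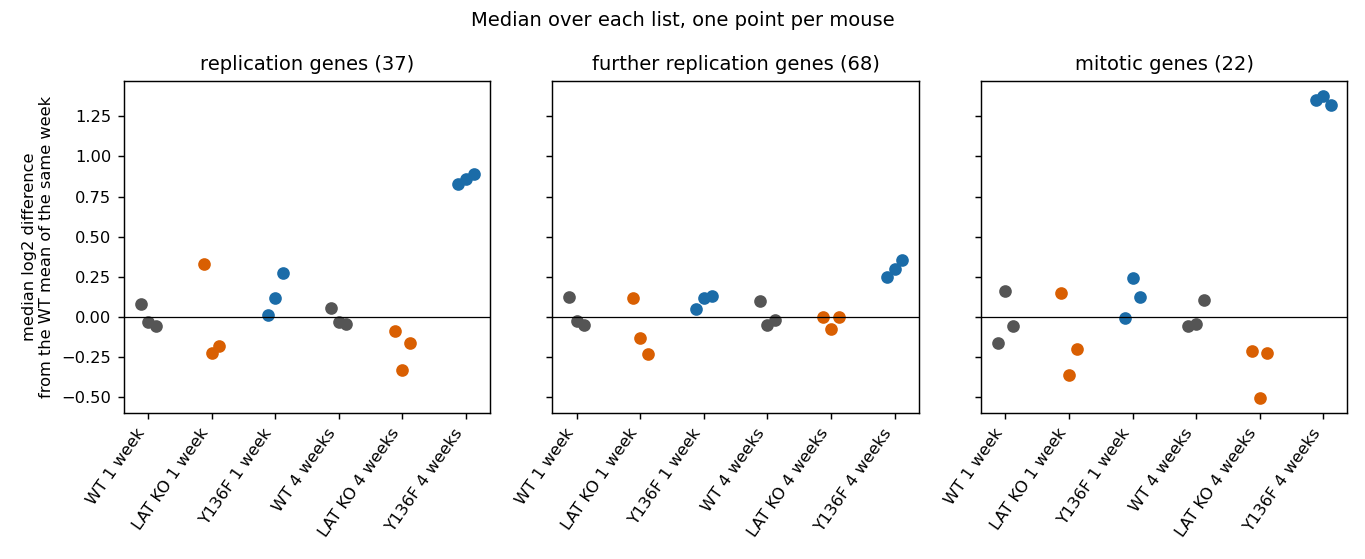
Median over 3 gene lists of the log2 difference from the WT mean of the same week, 1 point per mouse, for the 37 replication genes, the 68 further replication genes and the 22 mitotic genes. In all panels the 3 Y136F mice of 4 weeks are the highest, at 0.83 to 0.89, 0.25 to 0.35 and 1.32 to 1.38.

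Markers of cell state and some markers of other cells moved with the 4-week Y136F group. Between Y136F and WT cells at 4 weeks, 781 of 31552 features, 2.48%, were called higher and 289 were called lower. Of 8 markers of activated or memory T cells 6 were higher in Y136F than in WT cells at 4 weeks, among them Bhlhe40 (2.07 ± 0.23, limma adjusted p = 9.84e-05) and Itgb1 (2.31 ± 0.27, 0.00013). Cd44, the gene of the surface protein used for the sort, differed by 0.52 ± 0.26 and did not pass (limma adjusted p = 0.33). The summed signal of this list, in multiples of the array's 75th percentile, ranged from 60.0 to 74.4 in the 4-week Y136F mice, 30.1 to 42.8 in WT and 26.8 to 40.4 in LAT KO mice. Of 8 naive markers 2 were lower, among them Ccr7 (-1.36 ± 0.16, 0.000111), with sums of 99.2 to 112 in Y136F, 128 to 140.4 in WT and 119.8 to 125 in LAT KO mice. Of 6 plasma cell markers 4 were higher and 1 lower, with sums of 7.13 to 8.87 in Y136F, 3.47 to 3.82 in WT and 2.98 to 3.33 in LAT KO mice. They include Jchain (3.19 ± 0.53, 0.00204) and Xbp1 (1.31 ± 0.25, 0.00486), and Prdm1, which is on the activated list too; Irf4 (-1.05 ± 0.23, 0.0156) was the lower one. Of other markers, 1 of 11 myeloid markers (S100a8, 2.99 ± 0.76), 1 of 6 NK cell markers (Eomes, 2.62 ± 0.38) and 1 of 9 T cell markers (Cd5, 0.65 ± 0.16) were higher. As whole lists these did not move: 6 of the 11 myeloid and 3 of the 6 NK differences were positive, with medians of 0.095 and 0.089. Myeloid sums ranged from 6.17 to 12.5 in Y136F and 5.65 to 6.65 in WT mice of 4 weeks. NK sums ranged from 5.57 to 7.69 and 6.36 to 7.41. By limma 0 of 12 B cell, 0 of 7 erythroid and 0 of 5 regulatory T cell markers were called, with 2, 2 and 1 at an unadjusted p under 0.05 where 16.3% of all features had one, and Cd8a, the only CD8 T cell marker tested, did not pass. B cell sums ranged from 8.28 to 13.1 in Y136F, 7.85 to 9.78 in WT and 5.02 to 12.1 in LAT KO mice of 4 weeks, and T cell sums from 148 to 151, 145 to 164 and 149 to 152. The part of these markers' cells in the replication gene levels was not tested.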

How the data were processed

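Per the file headers, the deposited intensity values are the processed signal of Agilent Feature Extraction, background-corrected by that software; per the submitters' processing notes, version 10.5 and limma were used. The deposited log2 values of the series matrix, normalized by the authors in a way not given in the sources used here, served as an alternative. From the intensity, log2 was taken and each array's 75th percentile subtracted; outlier spots were left out and spots of a probe averaged. Symbols came by accession from the RefSeq table of GRCm38.p6, which named 24844 of 41174 probes. Probes well above background on fewer than 3 arrays were dropped, and the brightest probe of a gene was used.

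Groups were compared in R 4.3.3 with limma 3.58.1 and statmod 1.5.0, fitting the 6 group means to all 18 arrays, with an intensity trend in the prior variance and two-sided tests. Benjamini-Hochberg adjustment ran over all features of each of the 11 comparisons. The fit was tested on simulated data. For Y136F against WT at 4 weeks, it recovered 3 of 50 genes changed 1.5-fold and 21 of 50 changed 2-fold. It recovered 42 of 50 changed 4-fold and 43 of 50 changed 8-fold. Figures were drawn with matplotlib 3.10.9.

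Values of every array are given, per role, for the up to 3 genes with the smallest p in Y136F against WT at 4 weeks and for any gene there without a call that went the other way; of the other lists up to 3 genes of smallest p are named, a few being not reported here, and the marker genes, Pcna and Chek1 were named after their values were seen. The 38 genes, the lists and these rules were chosen with earlier results of these data known. In 0 of 9 comparisons did the deviations of all 3 same-numbered pairs correlate above 0.1 (-0.31 to 0.12 for Y136F and WT at 4 weeks), so the numbers were not taken as pairs. Other background corrections, normalizations, probe rules, slide, sex and replicate terms, array weights and arrays left out were tried as alternatives.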

Additional observations from a re-analysis of the deposited data

Results flagged for a closer look

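Among the 37 genes, 1 result stood out by a direct test of the change between the times: the Y136F difference of Cdt1 from WT was 0.99 ± 0.20 (SE) higher on the log2 scale at 4 weeks than at 1 week (limma adjusted p = 0.0362). All 3 Y136F mice of 4 weeks lay above all 3 WT mice of 4 weeks, whereas at 1 week the groups overlapped. The mean of the WT mice was 0.98 at 1 week and 0.29 at 4 weeks, and that of the Y136F mice 0.94 and 1.23. The 1-week WT mice were labelled female and male, the 4-week WT mice all male. The call held in 14 of 31 alternatives, with a change from 0.86 to 1.13. It was lost with the labelled sex as a term and without most of the single arrays.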

How the results depend on the processing

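Y136F against WT at 4 weeks gave 21 called genes and 0 with the labelled sex as a term (limma, median difference 0.72); the count was within 1.5 times of 21 in the 24 other alternatives, with 14 to 19 when single arrays were left out. The median of the 37 differences ranged from 0.72 to 0.93 over the 25 alternatives. Of the 21 genes 11 passed in 24 of 25 alternatives, whereas Slbp passed in 11. The median over all features moved from -0.19 to -0.08 with quantile normalization and to -0.05 on the authors' log2 values. LAT KO against Y136F at 4 weeks gave 27, 5 with sex, 13 with sex and without the LAT KO arrays against their labelled sex, and 16 to 22 without single arrays. Y136F at 4 against 1 week gave 20, 9 with slide as a fixed term, and 15 to 19 without single arrays. The change of the Y136F difference gave 1, and 0 with normexp, sex, no intensity trend, without the arrays of slide 5 or with arrays centred on the median. It gave 3 with slide as a random block, 4 with sex and without the LAT KO arrays against their labelled sex, 7 with only the groups compared, 13 without those LAT KO arrays, 16 with array weights, and 0 to 1 without single arrays. Array weights gave 1 call for Y136F against WT at 1 week, 3 for LAT KO against WT at 4 weeks, 3 for LAT KO against Y136F at 1 week and 4 for WT at 4 against 1 week, which gave 2 without the LAT KO arrays against their labelled sex. The causes were not tested.

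In single genes, the direction of Y136F against WT at 4 weeks turned for 5 without a call. Rfc4 gave -0.0019 with normexp, -0.15 with sex, -0.16 with sex and without the LAT KO arrays against their labelled sex, -0.015 with the share of spots above background as a term, -0.041 without WT replicate 2, and from -0.083 to 0.25 without single arrays. Rfc5 gave -0.044 with sex, -0.092 with sex and without those arrays, and -0.058 to 0.29 without single arrays. Mcm4 gave -0.0062 with sex and without those arrays and -0.025 to 0.26 without single arrays. Pcna gave -0.0997 with sex, and Chaf1b -0.48 to 0.015 without single arrays.

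With the replicate number as a block (replicate block), the counts were 21 for Y136F against WT at 4 weeks, 24 for LAT KO against Y136F at 4 weeks, 20 for Y136F at 4 against 1 week, 1 for the change of the Y136F difference and 0 elsewhere. The numbers were not taken as a pairing: in 0 of 9 comparisons did all 3 same-numbered pairs correlate above 0.1. All 3 were above 0 in 2 of them, LAT KO against WT at 4 weeks (0.033 to 0.28) and LAT KO at 4 against 1 week (0.055 to 0.52). All 37 genes were well above background on all 18 arrays. The 3 mice per group limit the precision.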
